A study of Mus musculus with 18 samples.

Results

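The genes described here are the cytokines, chemokines and receptors of the mouse whose symbols begin with Ccl, Ccr, Cxcl, Cxcr, Il, Tnfsf or Tnfrsf followed by a digit, with Tnfrsf19 left out. They were taken by symbol from the deposited tables of choroid, retina and brain, with earlier results of these data known. Those tables list a gene only above a raw minimum of 50, so measured values decided which symbols were present. There were 67 such genes among the 14068 genes listed in at least 1 of the 3 tables. Of these, 45 were listed in choroid, 39 in retina and 57 in brain. All 3 tables held 29 of them, exactly 2 tables held 16, and 22 were in 1 table. A symbol rule also takes in genes that are no cytokine or receptor in the strict sense, such as Il4i1, an amino acid oxidase induced by interleukin 4.

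Every animal was Tie2-cre+; NuTRAP+. The Tie2 promoter drives Cre in endothelium and in cells of the blood lineage, and Cre switches on a GFP tag on the ribosomal protein Rpl10a from the NuTRAP allele. In each tissue a cleared lysate was split into an input, 150 microlitres saved before the pull-down, and a positive fraction, the RNA on ribosomes pulled down with an antibody to GFP. The 6 groups, 2 fractions of 3 tissues, held 3 libraries each, numbered 421, 953 and 960. The column headers also label every library WT. A choroid or retina replicate pooled 2 eyes, choroid was collected along with retinal pigment epithelium, and a brain replicate took 0.5 of the organ. The sources used here do not give age or sex, and no libraries from animals without the transgenes were analysed here, so RNA that binds the beads without the tag is part of every positive value.

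Chemokines are small secreted proteins that guide leukocytes, and vessel walls both make them and display them to passing cells. Interleukins and the tumour necrosis factor (TNF) family are ligands whose receptors pass the signal on through JAK and STAT proteins or through NF-kappaB. In vessels of the brain and eye, receptors of these families are known for opening the barrier and raising adhesion molecules during inflammation, while CXCL12 and its receptors act in vessel growth.

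The chemokines fall into families named for the first cysteines of the mature protein: adjacent in the CC family and split by 1 residue in the CXC family. The coding stretches around these codons are printed for the ligands on which the results turn, because they show both the family and how alike the neighbouring genes are. They were read 5′ to 3′ from GENCODE M21 transcripts (GRCm38), with the cysteine codons in capitals. The CC ligands carried the codons side by side.
Ccl12: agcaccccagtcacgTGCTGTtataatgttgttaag
Ccl8: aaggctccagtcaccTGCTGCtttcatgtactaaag
Ccl9: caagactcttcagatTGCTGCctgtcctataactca
Ccl6: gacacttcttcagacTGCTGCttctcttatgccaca
Ccl21a: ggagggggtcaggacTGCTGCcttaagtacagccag
Ccl19: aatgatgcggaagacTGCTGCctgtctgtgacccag
Ccl27a: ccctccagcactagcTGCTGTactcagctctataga
Ccl27b: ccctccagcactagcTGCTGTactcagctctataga
In the CXC ligands 1 codon stood between them.
Cxcl12: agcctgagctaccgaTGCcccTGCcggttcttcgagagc
Cxcl14: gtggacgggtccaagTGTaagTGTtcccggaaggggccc
Cxcl16: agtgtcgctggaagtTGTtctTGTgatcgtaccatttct
The stretches of Ccl27a and Ccl27b were the same letter for letter, and 98.1% of the 50-base windows of Ccl27b occurred in transcripts of another gene, so nearly all reads of Ccl27b could also come from Ccl27a. The same share was 45.0% for Ccl27a, 71.6% for Ccl21a (with Gm21541, Gm13304, Ccl21b and Gm10591), 52.0% for Ccl19, 46.3% for Il11ra1 and 27.5% for Il2rg (with Gm20489, on the same strand). For Tnfsf12 and Tnfsf13 it was 46.8% and 57.3%, because a read-through transcript, Tnfsfm13, spans both. Values of all these genes are uncertain to that extent.

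Level and enrichment over input were read on CPM, the count of a gene relative to the summed counts of the listed genes in its library. CPM was scaled within a tissue by TMM over those genes. A gene was called higher or lower in the positive fraction at an adjusted p under 0.05 in edgeR's quasi-likelihood test with Benjamini-Hochberg adjustment over all genes of the tissue, and every adjusted p in the text comes from that test unless another is named. Fold changes are on the log2 scale with the standard error (SE), and means are given ± SD with n = 3. Total counts over listed genes were lowest in choroid, where inputs held 8807306 to 14484068 and positives 2649095 to 4587921. Retina inputs held 15243098 to 21521130 and retina positives 6260958 to 11071373 counts. Brain inputs held 9596740 to 32064355 and brain positives 18618427 to 28277853 counts. Brain input 960 stood apart from its group, with a correlation of log2 CPM across genes of 0.911 and 0.913 with the other inputs against 0.996 between those. The 6 endothelial markers checked (Pecam1, Cdh5, Cldn5, Tek, Tie1 and Erg) were called higher in each tissue, with sums of 201 to 370 CPM in choroid inputs and 3291 to 4240 CPM in choroid positives. The sums went from 15.0 to 15.7 CPM up to 1165 to 1877 CPM in retina, and from 61.4 to 103 CPM up to 2628 to 3847 CPM in brain.

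A table lists a gene only where all 3 libraries of 1 fraction reached a raw value of 50. A gene listed through 1 fraction alone is thereby more likely to lie higher in that fraction, as depth allows, so counts of calls are a description of the listed genes. In choroid 26 of the 45 listed members were called higher and 4 lower, where 21.1% of all genes were called higher and 20.9% lower. In retina 18 of 39 were higher and 3 lower (all genes 18% and 13.7%), and in brain 38 of 57 were higher and 5 lower (21.2% and 18.3%). Their median log2 fold changes were 1.39, 0.62 and 2.27, against -0.03, -0.01 and -0.07 over all genes of the tables. Among members that reached the minimum in both fractions, 21 of 29 were higher in choroid, 12 of 22 in retina and 16 of 30 in brain, where 30.1%, 17.2% and 16.7% of all genes so listed were. Scaling by library size alone moved the all-gene split of choroid calls from 50.2% to 34.5% higher and left the members at 26 higher and 5 lower. The 3, 6 and 22 members that were called higher after being listed through the positive fraction alone (of 3, 6 and 27 so listed) carry no more weight than that listing. They were Ccl8, Il16 and Il2rg in choroid and Il13ra1, Il17rd, Il2ra, Il3ra, Tnfsf10 and Tnfrsf1b in retina. In brain they include Cxcl16, Il1r1, Il2rg, Il3ra, Il17rd, Tnfsf10, Tnfsf13 and Tnfrsf11a among the members described below. Fewer cells of a type and less RNA per cell cannot be told apart in these bulk libraries.

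**Figure D1:**
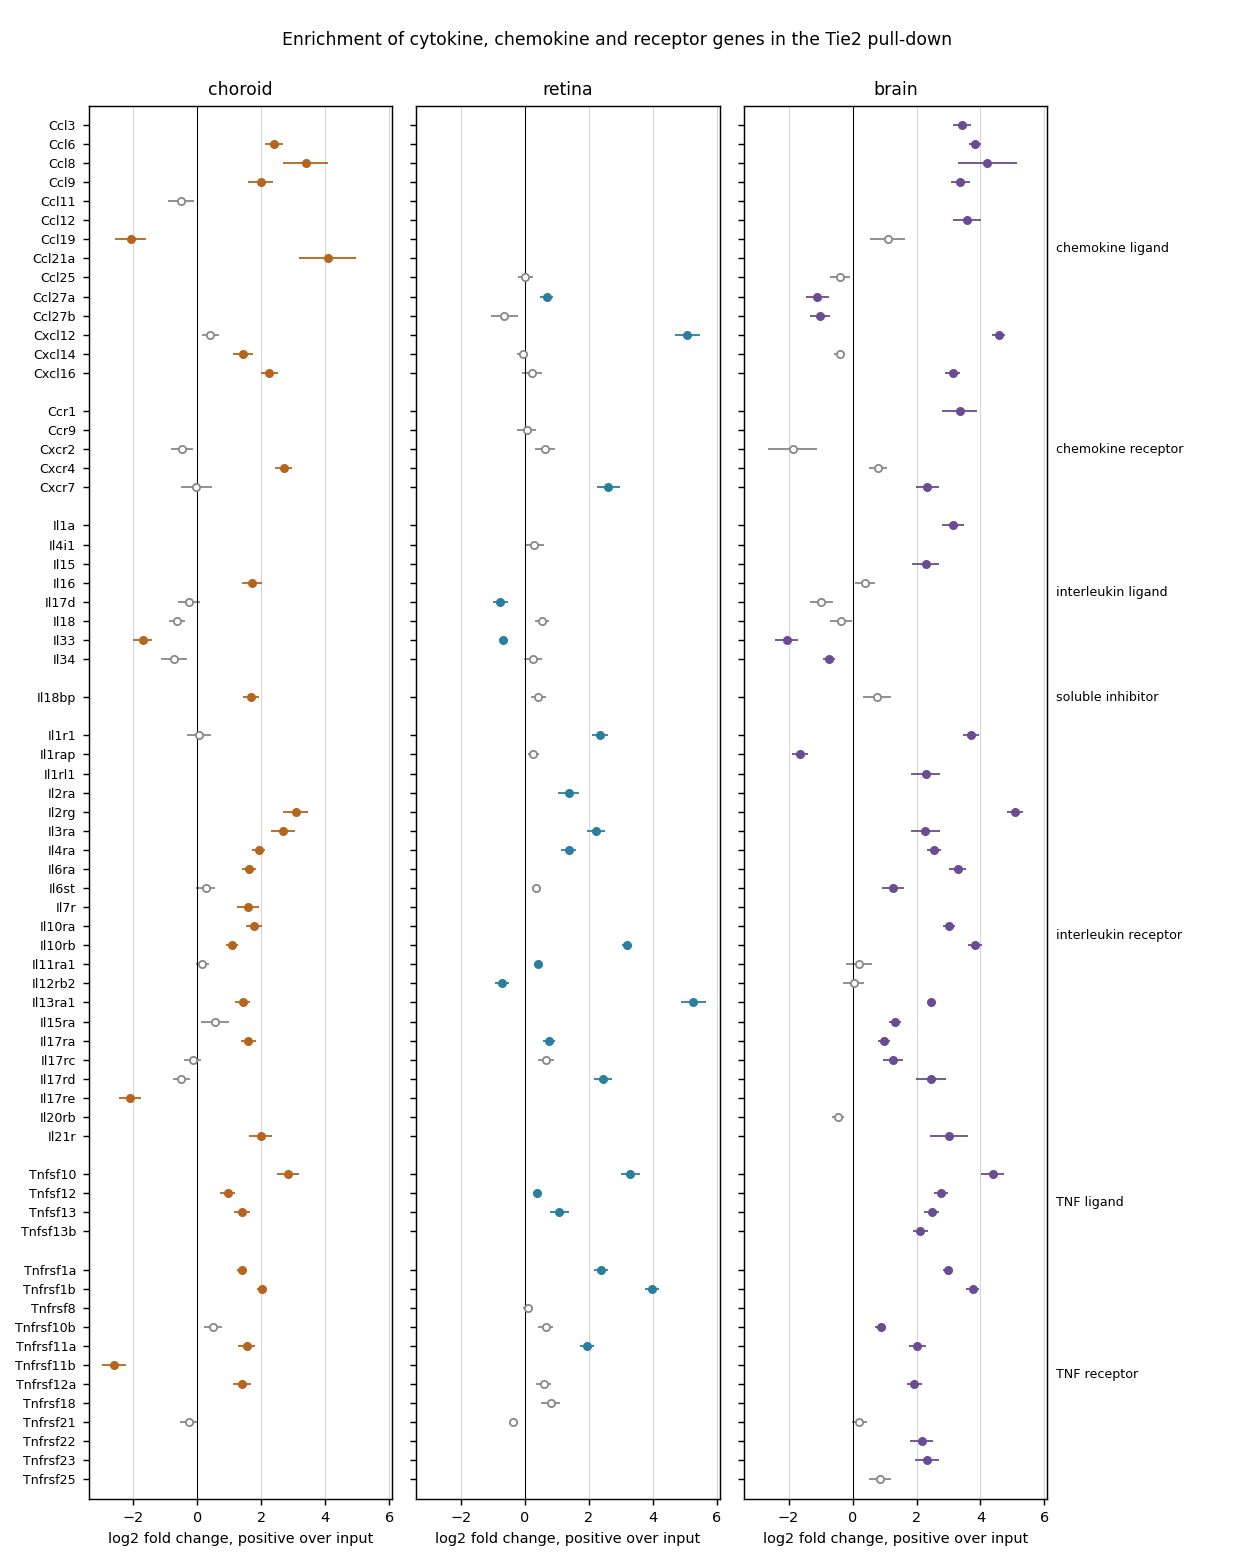
Log2 fold change of positive over input for each listed member, leaving out 1 not reported here, in choroid, retina and brain, with its SE (n = 3 per fraction), grouped by role. Filled points were called and open grey points were not. A row without a point was not listed in that tissue, and Cxcl12 lies near 0 in choroid but at 5.07 in retina and 4.57 in brain.

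Of the 29 members in all 3 tables, 11 were called higher in every tissue: the ligands Tnfsf10, Tnfsf12 and Tnfsf13, the TNF receptors Tnfrsf1a, Tnfrsf1b and Tnfrsf11a, and the interleukin receptor chains Il3ra, Il4ra, Il10rb, Il13ra1 and Il17ra. Among all 10505 genes listed in every tissue, 7.13% were. Of the 11, Tnfsf10, Il3ra, Il13ra1 and Tnfrsf1b in retina were listed through the positive fraction alone. So were Tnfsf10, Il3ra, Tnfsf13 and Tnfrsf11a in brain. Those calls carry no more weight than that listing, and the 11 are a description only. Il33 alone was called lower in every tissue (all genes 2.91%). Cxcl12, Cxcr7, Il1r1 and Il17rd were called higher in retina and brain and not called in choroid (all genes 3.54%). Of these, Il17rd in retina and brain and Il1r1 in brain were listed through the positive fraction alone. Cxcr2, Il18 and Tnfrsf21 were called in no tissue (all genes 35.1%).

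Among the chemokine ligands, Cxcl12 (chr6:117168535-117181367, plus strand), the ligand of CXCR4 and of the scavenging receptor CXCR7, had the highest level of any member in brain positives. In retina its inputs 421, 953 and 960 were at 8.20, 11.2 and 10.1 CPM and its positives at 539, 262 and 195 CPM. In brain the inputs were at 35.3, 33.3 and 29.3 CPM and the positives at 789, 899 and 633 CPM. The fractions were far apart in both tissues, with retina positive 421 above the other retina positives. The log2 fold change was 5.07 ± 0.39 (SE, adjusted p = 2.56e-05) in retina and 4.57 ± 0.21 (adjusted p = 4.11e-05) in brain. In choroid the inputs were at 255, 170 and 192 CPM and the positives at 361, 191 and 261 CPM. These overlapped, the log2 fold change was 0.40 ± 0.26 and the gene was not called (adjusted p = 0.243), although a fit that pairs the fractions of each lysate (replicate as a block) gave 0.37 (adjusted p = 0.0347). The endothelial marker sum of the retina positives ran in the same order as Cxcl12, at 1877, 1455 and 1165 CPM in 421, 953 and 960. Retina positive 421 also had the highest summed level of the mural markers Rgs5 and Pdgfrb, 355 CPM against 35.7 and 16.7 CPM in positives 953 and 960 and 20.5 to 23.1 CPM in inputs. Its microglial sum was the lowest, 86.7 CPM against 323 and 375 CPM, and the part of these cells in the Cxcl12 values was not tested.

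Ccl21a (chr4:42772860-42773993, minus strand), the CCR7 ligand made by lymphatic endothelium, was listed in choroid only. Its inputs 421, 953 and 960 were at 5.62, 18.2 and 4.93 CPM and its positives at 53.3, 364 and 55.9 CPM. All positives lay above all inputs, and replicate 953 was the highest of both fractions. The log2 fold change was 4.07 ± 0.88 (adjusted p = 0.00682), the highest among the members called in choroid. Of the 7 genes of the lymphatic list 5 were listed in choroid: Lyve1 and Flt4 were called higher beside Ccl21a, Pdpn and Reln lower, and Prox1 and Mmrn1 were not listed. Lyve1, a hyaluronan receptor, was at 21.3, 141 and 31.4 CPM in positives 421, 953 and 960, whereas Flt4, a VEGF-C receptor, was at 259, 132 and 166 CPM. Without Ccl21a itself the 4 other listed genes summed to 706 to 869 CPM in inputs and to 496, 495 and 403 CPM in positives 421, 953 and 960, and the part of lymphatic cells in the Ccl21a values was not tested.

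Cxcl16, a membrane-bound ligand of CXCR6, was at 50.0, 34.9 and 71.4 CPM in choroid inputs and at 233, 221 and 289 CPM in the positives. It rose by a log2 fold change of 2.25 ± 0.27 (adjusted p = 0.00043) and also in brain, from 2.88, 2.14 and 3.58 CPM to 27.0, 24.0 and 22.7 CPM (3.13 ± 0.23, adjusted p = 0.000108). In retina its fractions overlapped, at 12.7, 13.1 and 12.2 CPM in input and 7.12, 19.2 and 18.1 CPM in positive, with no call (adjusted p = 0.595). Without retina positive 421 it was called there, at a log2 fold change of 0.55 (adjusted p = 0.0170). Cxcl14, a chemokine of epithelia and neurons, rose in choroid only among the tissues tested, from 18.4 ± 3.00 CPM to 48.8 ± 20.6 CPM (log2 fold change 1.42 ± 0.32, adjusted p = 0.00793), a call that ended without both fractions of replicate 953 (adjusted p = 0.0700). It was at 86.4 ± 5.58 and 82.2 ± 20.6 CPM in retina input and positive, and at 135 ± 11.8 and 102 ± 18.4 CPM in brain.

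The CC ligands Ccl12, Ccl8, Ccl9, Ccl6 and Ccl3, known as products of macrophages and other myeloid cells, lie within 2 clusters on chromosome 11, Ccl12 and Ccl8 from 82101845 to 82116799 and Ccl9, Ccl6 and Ccl3 from 83572919 to 83649355 (GENCODE M21). All 5 were called higher in brain, where each was listed through the positive fraction alone. Ccl6 was at 2.07, 1.89 and 1.73 CPM in brain inputs and at 27.1, 30.2 and 24.4 CPM in positives (log2 fold change 3.82 ± 0.19, adjusted p = 4.11e-05). Ccl9 reached 14.8 ± 4.38 CPM in brain positives (3.37 ± 0.30, adjusted p = 0.000226), and Ccl12, Ccl8 and Ccl3 reached 6.31 ± 0.867, 5.07 ± 1.31 and 4.01 ± 0.582 CPM. Counts behind the low brain values were few: Ccl8 had 6, 0 and 10 counts in inputs 421, 953 and 960, and its call (4.22 ± 0.93, adjusted p = 0.0118) was lost without brain positive 953 (adjusted p = 0.0528) and without both fractions of 421 or 953 (adjusted p = 0.128 and 0.0794). In choroid Ccl6 rose from 19.0, 25.9 and 21.4 CPM to 80.3, 167 and 103 CPM (2.4 ± 0.29, adjusted p = 0.000433), and Ccl9 from 14 ± 2.24 to 55 ± 32.9 CPM (1.98 ± 0.39, adjusted p = 0.00474). Ccl8 was at 3.15, 3.76 and 12.6 CPM in choroid inputs and 20, 81.8 and 107 CPM in positives, with every positive above every input (3.39 ± 0.71, adjusted p = 0.00605). Without both fractions of replicate 953 the choroid call of Ccl8 was lost (adjusted p = 0.0873).

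Summed levels of microglial and macrophage markers were higher in positives than in inputs in each tissue, also in retina, where none of these ligands was listed. In brain all 6 microglial markers (176 to 337 CPM summed in inputs, 2113 to 2781 CPM in positives) and all 6 listed macrophage markers of 7 symbols (108 to 124 and 1304 to 1749 CPM) were called higher. Of the 7 macrophage symbols, Adgre1 and Emr1 are names of the same gene. In choroid 3 of 4 listed microglial markers of 6 (152 to 313 and 1743 to 2327 CPM) and 4 of 5 listed macrophage markers of the 7 symbols (1395 to 2235 and 12716 to 18763 CPM) were called higher. In retina 5 of 5 listed microglial markers (16.2 to 17.3 and 86.7 to 375 CPM) and 2 of 2 listed macrophage markers (12.7 to 15.1 and 67.0 to 281 CPM) were. No T or B cell marker of the 9 checked was listed in any tissue. The part of blood-lineage cells in the values of these ligands, and of the receptors of the same cells described below, was not tested.

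The sequence before the transcription start was read for the 55 members in the RefSeq promoter table (GRCm38.p6), which gave 70 starts. The 250 bases upstream of Ccl12 (chr11:82101595-82101844, plus strand), Ccl8 (chr11:82114935-82115184, plus strand) and Ccl9 (chr11:83578637-83578886, minus strand) are printed on the strand of the gene. These chromosome 11 ligands were called higher in brain, where each was listed through the positive fraction alone. Capitals mark matches on either strand to TATAAA, to the kappaB-type motif GGGNNTTTC or to the PU.1-type motif GAGGAA.
Ccl12: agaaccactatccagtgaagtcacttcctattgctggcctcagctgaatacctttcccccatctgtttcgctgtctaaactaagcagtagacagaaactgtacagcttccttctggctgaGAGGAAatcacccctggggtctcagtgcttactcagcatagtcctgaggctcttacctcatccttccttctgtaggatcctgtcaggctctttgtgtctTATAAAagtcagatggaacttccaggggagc
Ccl8: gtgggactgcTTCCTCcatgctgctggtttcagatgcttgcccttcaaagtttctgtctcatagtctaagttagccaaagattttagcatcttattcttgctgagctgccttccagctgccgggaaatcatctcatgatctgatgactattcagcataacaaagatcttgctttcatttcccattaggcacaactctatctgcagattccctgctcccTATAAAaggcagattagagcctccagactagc
Ccl9: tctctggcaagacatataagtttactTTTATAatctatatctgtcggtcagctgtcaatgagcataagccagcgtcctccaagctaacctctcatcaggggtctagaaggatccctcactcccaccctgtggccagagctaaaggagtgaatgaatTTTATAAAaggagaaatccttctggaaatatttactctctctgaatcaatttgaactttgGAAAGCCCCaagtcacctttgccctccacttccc
In Ccl12 and Ccl8 the letters TATAAA began 31 and 32 bases before the start. TATAAA was present in 12 of the 70 member promoters (17.1%) and in 12.4% of all 32851 promoters of the same length. GGGNNTTTC was in 7 (10.0%, all promoters 3.72%), GAGGAA in 23 (32.9%, all promoters 23.3%) and the STAT-type motif TTCNNNGAA in 7 (10.0%, all promoters 7.02%). Some matches overlap, as TATAAA does with itself on the other strand in Ccl9. These shares describe letters only.

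Some ligands fell or did not change. Ccl19, a CCR7 ligand, was at 13.3, 9.81 and 13.4 CPM in choroid inputs and 2.27, 5.25 and 0.848 CPM in positives, with no overlap (log2 fold change -2.09 ± 0.49, adjusted p = 0.00976). In brain it was at 2.79 ± 2.18 and 5.52 ± 1.99 CPM and not called (adjusted p = 0.158), but was called with replicate as a block (adjusted p = 0.0422) and without brain input 960 (1.85, adjusted p = 0.00212). The skin-type chemokine Ccl27a was lower in brain positives, 13.6, 9.75 and 13.6 CPM against 16.7, 21.3 and 42.3 CPM (-1.11 ± 0.36, adjusted p = 0.0487), a call that ended with the block (adjusted p = 0.0585) and without any of the 3 brain positives or input 953 (highest adjusted p over single libraries = 0.173). Its copy Ccl27b gave -1.02 ± 0.32 (adjusted p = 0.0416), which likewise ended without any brain positive or input 421 (highest adjusted p over single libraries = 0.145). In retina Ccl27a was higher, 16.4 ± 2.96 against 10.2 ± 1.82 CPM (0.68 ± 0.21, adjusted p = 0.0363), and this ended without input 953 or 960 or positive 421 or 953 (highest adjusted p over single libraries = 0.137). Ccl11, an eosinophil attractant, was not called in choroid (adjusted p = 0.322) except without positive 953, where it was at a log2 fold change of -1.16 (adjusted p = 0.0217).

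Among the chemokine receptors, Cxcr4 was at 33.4, 16.7 and 28.4 CPM in choroid inputs and at 189, 141 and 180 CPM in positives. All positives were several times every input, and the log2 fold change was 2.70 ± 0.27 (adjusted p = 0.000214). In brain Cxcr4 was low in both fractions, 2.82, 2.60 and 1.52 CPM in input and 4.03, 3.79 and 4.70 CPM in positive, and was not called (0.81 ± 0.28, adjusted p = 0.0574; called without brain input 960 at 0.62, adjusted p = 0.0235), and in retina it was not listed. Cxcr7, now named Ackr3, the scavenging receptor for CXCL12, gave the opposite order of tissues. It rose from 3.61, 3.36 and 3.80 CPM to 33.8, 21.2 and 11.4 CPM in retina (2.61 ± 0.37, adjusted p = 0.00102) and from 11.1, 9.31 and 6.39 to 54.0, 57.0 and 26.5 CPM in brain (2.34 ± 0.35, adjusted p = 0.00241). In choroid its inputs were at 74.7, 102 and 82.2 CPM and its positives at 39.9, 165 and 47.5 CPM. The choroid positives lay on both sides of the inputs, and without positive 953, the library with the most Ccl21a and Lyve1, Cxcr7 was called lower (-0.99, adjusted p = 0.0152; -0.04 and adjusted p = 0.959 with it).

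Ccr1, a receptor for inflammatory CC chemokines on myeloid cells, was listed in brain only, through the positive fraction. It was at 0.504 ± 0.418 and 4.14 ± 0.845 CPM (3.35 ± 0.54, adjusted p = 0.00333), a call that ended without both fractions of replicate 953 (adjusted p = 0.0893). The neutrophil receptor Cxcr2 was called in no tissue. Its brain inputs were at 10.9, 11.9 and 63.3 CPM and its positives at 5.36, 5.57 and 12.1 CPM, so that input 960 set the brain mean, and the log2 fold change was -1.88 ± 0.76 (adjusted p = 0.0897; 0.0278 with replicate as a block, and -1.07 with adjusted p = 0.000507 without replicate 960). The neutrophil markers S100a8 and S100a9 summed to 32.0 CPM in brain input 960 against 1.53 and 2.18 CPM in the other inputs, and to 68.6 CPM in positive 960 against 13.2 and 18 CPM. Their part in the Cxcr2 values was not tested.

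**Figure D2:**
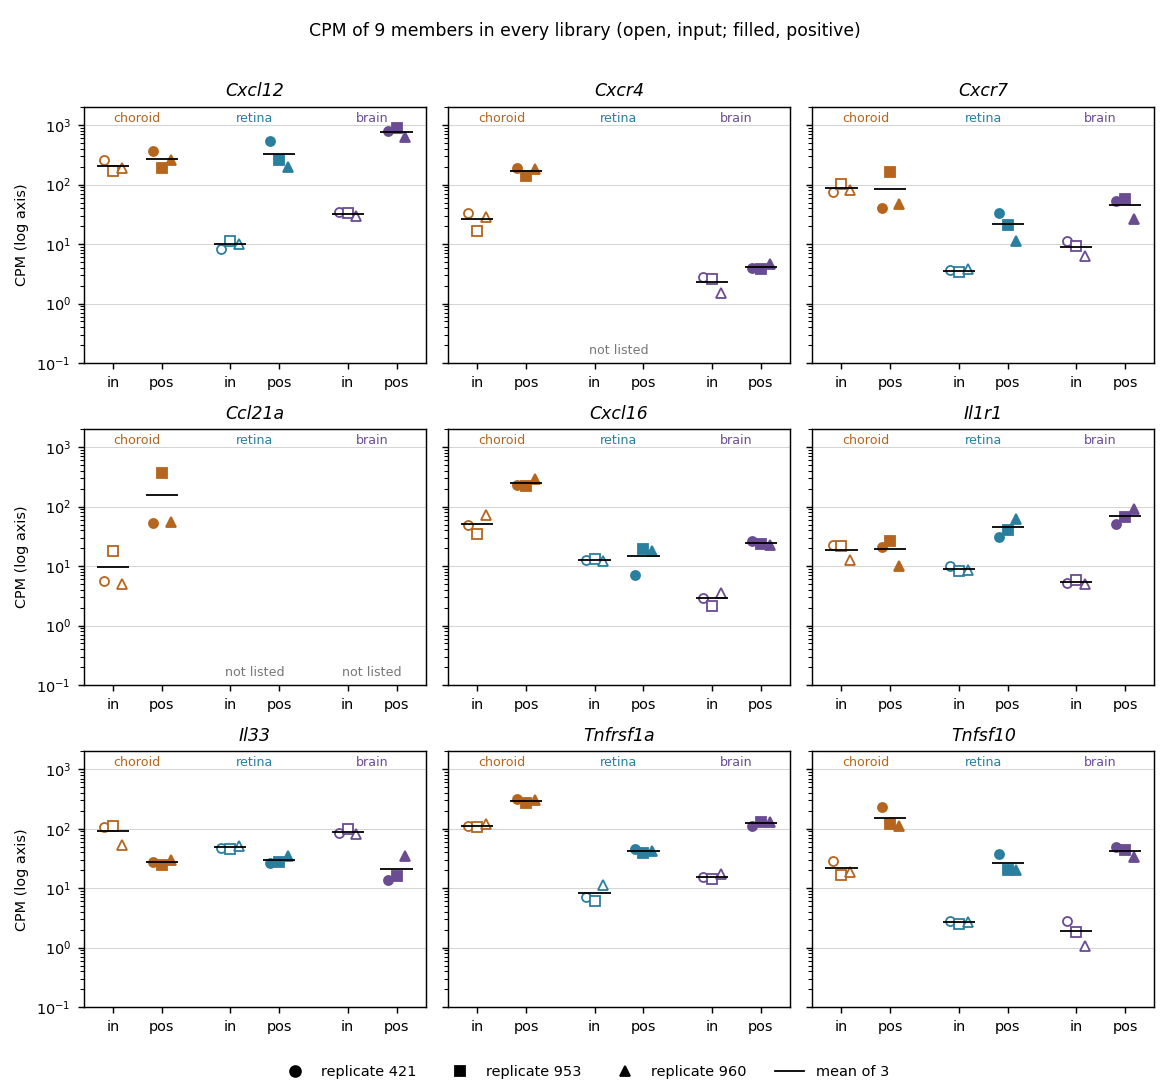
CPM, on a log axis, of 9 members in every library, by tissue, with open symbols for input (in), filled symbols for positive (pos), 1 symbol shape for each replicate number and a line at the mean of 3. Cxcl12 fractions overlap in choroid and are far apart in retina and brain, and choroid positive 953 stands high for Ccl21a and Cxcr7.

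Among the interleukins themselves, Il33, an alarmin stored in nuclei of glia and stromal cells, was at 105, 112 and 53.6 CPM in choroid inputs and 27.7, 25 and 29.7 CPM in positives. In retina it went from 47.8, 45.8 and 51.6 to 27.0, 27.9 and 35.1 CPM, and in brain from 86.3, 99.8 and 81.0 to 13.5, 15.9 and 34.7 CPM. Positives lay below inputs without overlap in each tissue, by log2 fold changes of -1.72 ± 0.29 (adjusted p = 0.00212), -0.68 ± 0.14 (adjusted p = 0.00644) and -2.06 ± 0.37 (adjusted p = 0.00502). Without both fractions of replicate 953 the calls in retina and brain ended (adjusted p = 0.119 and 0.0781). Il34, a neuronal ligand of the receptor CSF1R, fell in brain from 36.6, 37.7 and 36.8 to 20, 18.7 and 27.6 CPM (-0.74 ± 0.18, adjusted p = 0.0176), and this ended without input 953 or positive 421 or 953 (highest adjusted p over single libraries = 0.0829). It was at 8.17 ± 2.53 and 4.78 ± 2.13 CPM in choroid and 6.70 ± 1.25 and 8.05 ± 2.72 CPM in retina, with no call. Il17d fell in retina, 4.02 ± 0.722 against 6.97 ± 1.09 CPM (-0.77 ± 0.23, adjusted p = 0.0333), but the call ended without any retina input or without positive 421 or 953 (highest adjusted p over single libraries = 0.136).

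Il16, Il1a and Il15 rose. Il16, a CD4 ligand, was at 8.4, 4.59 and 7.36 CPM in choroid inputs and 27.7, 17.3 and 22.0 CPM in positives (1.71 ± 0.32, adjusted p = 0.00341), whereas in brain it was at 38.6 ± 16.6 and 50.5 ± 1.87 CPM (adjusted p = 0.378). Il1a, which signals through IL1R1, was at 0.399 ± 0.102 and 3.58 ± 0.819 CPM in brain input and positive (3.15 ± 0.34, adjusted p = 0.000594). Il15 was at 1.30 ± 0.661 and 5.83 ± 1.91 CPM in brain (2.28 ± 0.43, adjusted p = 0.00641), and its call ended without both fractions of replicate 421 or 953 (adjusted p = 0.0924 and 0.124). Il1a and Il15 were listed through the brain positives alone. Il18, a caspase-1 product, was not called in choroid (-0.65 ± 0.25, adjusted p = 0.0673) but was with replicate as a block (adjusted p = 0.0182), with positives at 12.7, 19.8 and 18.6 CPM all below inputs at 21.7, 29.9 and 28.1 CPM. The soluble inhibitor Il18bp, which binds it, rose in choroid from 6.18 ± 0.809 to 19.9 ± 2.74 CPM (1.68 ± 0.26, adjusted p = 0.00139) and was not called in retina (0.42 ± 0.23, adjusted p = 0.194) or brain (0.77 ± 0.43, adjusted p = 0.197).

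The interleukin receptor chains were the most numerous class: 10 of 17 listed were called higher and 1 lower in choroid, 9 of 13 and 1 in retina, and 15 of 19 and 1 in brain. Of all genes, 21.1% were called higher and 20.9% lower in choroid, 18% and 13.7% in retina, and 21.2% and 18.3% in brain. Through the positive fraction alone, Il2rg was listed in choroid and Il13ra1, Il17rd, Il2ra and Il3ra in retina. In brain the chains so listed included Il17rd, Il1r1, Il2rg and Il3ra, so these class counts are a description of the listed genes. Il10rb, the shared chain of the IL-10, IL-22 and interferon lambda receptors, was at 4.4, 4.06 and 4.98 CPM in retina inputs and 43.7, 42.8 and 36.9 CPM in positives (3.19 ± 0.16, adjusted p = 1.77e-06). In brain it went from 9.23, 7.77 and 11.7 to 136, 156 and 115 CPM (3.84 ± 0.22, adjusted p = 4.90e-05), and in choroid from 96.1 ± 17.6 to 204 ± 16.7 CPM (1.09 ± 0.18, adjusted p = 0.00198). Its 2 fractions did not overlap in any tissue. A read-through gene, Gm21970, shares 13.9% of its windows.

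Il1r1, the signalling receptor of IL-1, rose in retina from 9.91, 8.32 and 8.73 to 30.5, 41.2 and 63.1 CPM (2.34 ± 0.25, adjusted p = 0.000220). In brain it rose from 5.22, 5.74 and 5.09 to 52.0, 67.3 and 91.4 CPM (3.71 ± 0.25, adjusted p = 7.11e-05). In choroid it was at 22.4, 21.5 and 12.8 CPM in inputs and 21.1, 26.5 and 10.2 CPM in positives, which overlapped (0.04 ± 0.37, adjusted p = 0.932). Il1rap, the accessory chain needed for IL-1 and IL-33 signalling, went the other way in brain, from 30.1, 33.5 and 25.8 to 8.71, 7.07 and 12.8 CPM (-1.64 ± 0.25, adjusted p = 0.00269), and was not called in retina (0.26 ± 0.17, adjusted p = 0.273). Without both fractions of replicate 953 its brain call ended (adjusted p = 0.0501).

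Il13ra1, a chain of the IL-4 and IL-13 receptor, was listed in retina through the positive fraction alone and went from 0.459, 0.280 and 0.536 CPM in inputs (7, 6.5 and 10 counts) to 24.0, 12.0 and 13.3 CPM in positives. Its log2 fold change was 5.26 ± 0.39 (adjusted p = 2.12e-05), with 2.47 ± 0.15 in brain (adjusted p = 5.61e-05) and 1.41 ± 0.23 in choroid (adjusted p = 0.00189). Il4ra, which pairs with it, rose by 1.91 ± 0.19, 1.37 ± 0.24 and 2.55 ± 0.22 in choroid, retina and brain (adjusted p = 0.000224, 0.00377 and 0.000181). Il3ra, the alpha chain of the IL-3 receptor, rose by 2.67 ± 0.38, 2.22 ± 0.28 and 2.27 ± 0.46 (adjusted p = 0.000919, 0.000498 and 0.00807), and its brain call ended without both fractions of replicate 421 or 953 (adjusted p = 0.0705 and 0.120).

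Il2rg, the common gamma chain of leukocyte receptors, was listed through the positive fraction alone in brain and choroid. It was at 1.02, 0.642 and 1.08 CPM in brain inputs and 27.1, 32.7 and 30.5 CPM in positives (5.07 ± 0.25, adjusted p = 4.11e-05), and in choroid it rose from 13.0, 3.97 and 9.47 to 82.6, 62.4 and 78.4 CPM (3.07 ± 0.39, adjusted p = 0.000569). The ligand-binding chain Il10ra rose from 8.49 ± 0.724 to 68.2 ± 10.2 CPM in brain (3.01 ± 0.18, adjusted p = 5.19e-05) and from 19.3 ± 4.41 to 66.0 ± 12.8 CPM in choroid (1.77 ± 0.24, adjusted p = 0.000769). Il6ra rose from 11.5 ± 2.16 to 35.2 ± 2.63 CPM in choroid (1.61 ± 0.22, adjusted p = 0.000794). Il2rg, Il10ra and Il6ra were not listed in retina.

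Il6st, the gp130 chain shared by the IL-6 family, was called in brain alone. It was at 215, 127 and 109 CPM in choroid inputs and 197, 210 and 131 CPM in positives (0.26 ± 0.29, adjusted p = 0.496). In retina it was at 118 ± 9.5 and 151 ± 20.4 CPM (0.35 ± 0.13, adjusted p = 0.0606; called without positive 960 at 0.46, adjusted p = 0.0111). In brain its inputs were at 103, 102 and 41.1 CPM and its positives at 211, 215 and 167 CPM (1.26 ± 0.35, adjusted p = 0.0275), a call that ended without any of the 3 positives (highest adjusted p over single libraries = 0.0934). Input 960 was again the lone low library.

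Beside Il1rap in brain, the chains that fell were Il17re, an epithelial receptor chain for IL-17C, from 61.2, 81.1 and 87.3 to 15.0, 10.5 and 28.4 CPM in choroid (-2.12 ± 0.35, adjusted p = 0.00186), and Il12rb2 in retina, from 6.14 ± 0.365 to 3.81 ± 0.593 CPM (-0.71 ± 0.22, adjusted p = 0.0360). The Il12rb2 call ended with replicate as a block (adjusted p = 0.0646) and without any retina library but positive 421 (highest adjusted p over single libraries = 0.119). Beside Il17re, all 4 listed markers of the retinal pigment epithelium were called lower in choroid, with summed levels of 8572 to 14324 CPM in inputs and 2283 to 5358 CPM in positives, and their part in its values was not tested. Il11ra1 was called higher in retina (0.41 ± 0.13, adjusted p = 0.0439), which ended with the replicate block (adjusted p = 0.0866) and without any retina library but positive 960 (highest adjusted p over single libraries = 0.154). It was not called in choroid (0.15 ± 0.21, adjusted p = 0.587) or brain (0.21 ± 0.40, adjusted p = 0.714). Its brain inputs were at 22.7, 24.5 and 64.1 CPM, and without input 960 it was called higher at 0.84 (adjusted p = 0.000212).

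TNF family ligands were called higher in each tissue where they were listed (3 of 3 in choroid and retina and 4 of 4 in brain). Of all genes, 21.1%, 18% and 21.2% were called higher in choroid, retina and brain. Tnfsf10 in retina, and Tnfsf10, Tnfsf13 and Tnfsf13b in brain, were listed through the positive fraction alone. Tnfsf10 (TRAIL), a death-receptor ligand, was at 29.1, 16.5 and 18.9 CPM in choroid inputs and 229, 119 and 109 CPM in positives (2.83 ± 0.34, adjusted p = 0.000465). In retina it went from 2.76, 2.48 and 2.73 to 38.2, 20.5 and 19.9 CPM (3.29 ± 0.29, adjusted p = 6.15e-05), and in brain from 2.79, 1.85 and 1.08 to 49.8, 43.3 and 33.1 CPM (4.38 ± 0.35, adjusted p = 0.000137). Replicate 421 was the highest positive in every tissue. Tnfsf12 (TWEAK) rose from 12.7, 10.5 and 16.7 to 91.7, 102 and 77.8 CPM in brain (2.78 ± 0.22, adjusted p = 0.000138) and from 53.1 ± 13.3 to 102 ± 21 CPM in choroid (0.94 ± 0.23, adjusted p = 0.0127; ended without input 953, adjusted p = 0.0599). In retina it was at 156 ± 6.64 and 203 ± 21.6 CPM, a log2 fold change of 0.37 ± 0.11 (adjusted p = 0.0341) that lost its call with replicate as a block (adjusted p = 0.0524) and without any input or positive 953 (highest adjusted p over single libraries = 0.147).

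Tnfsf13 (APRIL), a B cell survival factor, rose by 1.39 ± 0.25 in choroid (adjusted p = 0.00275), 1.07 ± 0.30 in retina (adjusted p = 0.0267) and 2.48 ± 0.23 in brain (adjusted p = 0.000285). Its retina call ended without any input or positive 953 (highest adjusted p over single libraries = 0.0972). Its relative Tnfsf13b (BAFF) was listed through the brain positives alone, at 2.4 ± 0.176 and 10.4 ± 2.05 CPM (2.12 ± 0.23, adjusted p = 0.000564).

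The receptors of TNF itself were among the steadiest members. Tnfrsf1a was at 113, 105 and 121 CPM in choroid inputs and 315, 269 and 302 CPM in positives (1.39 ± 0.16, adjusted p = 0.000344). It went from 7.15, 6.17 and 11.2 to 45.2, 39.2 and 42.4 CPM in retina (2.37 ± 0.22, adjusted p = 8.30e-05) and from 15.5, 14.3 and 17.2 to 109, 128 and 131 CPM in brain (2.97 ± 0.16, adjusted p = 4.12e-05). Tnfrsf1b, the second TNF receptor, went from 50.8 ± 5.53 to 207 ± 8.05 CPM in choroid (2.02 ± 0.16, adjusted p = 9.73e-05), from 1.74 ± 0.489 to 27.9 ± 0.835 CPM in retina (3.98 ± 0.22, adjusted p = 3.88e-06) and from 5.90 ± 1.10 to 78.5 ± 8.07 CPM in brain (3.75 ± 0.19, adjusted p = 4.12e-05). Positives and inputs of both genes were separate in every tissue, and no alternative listed in the closing section changed these 6 calls. In retina Tnfrsf1b was listed through the positive fraction alone, so that call carries no more weight than the listing.

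Tnfrsf11a (RANK), a receptor of osteoclasts and myeloid cells, rose by 1.54 ± 0.27 in choroid (adjusted p = 0.00251), 1.93 ± 0.22 in retina (adjusted p = 0.000290) and 2.02 ± 0.26 in brain (adjusted p = 0.00137). The choroid call ended without both fractions of replicate 953 (adjusted p = 0.0510). Tnfrsf12a, the TWEAK receptor, rose in brain from 7.70, 11.9 and 9.97 to 36.6, 45.1 and 31.3 CPM (1.93 ± 0.23, adjusted p = 0.000868). Tnfrsf11b (osteoprotegerin), a secreted decoy, fell in choroid from 24.8, 22.3 and 19.8 to 5.45, 1.85 and 3.39 CPM (-2.60 ± 0.37, adjusted p = 0.000973). All 5 fibroblast markers were lower there too, with sums of 1434 to 1938 CPM in inputs and 464 to 703 CPM in positives, and their part was not tested. Tnfrsf10b, a TRAIL receptor, was called higher in brain (0.87 ± 0.18, adjusted p = 0.00844), a call that ended without both fractions of replicate 421 or 953 (adjusted p = 0.110 and 0.153). It was not called in choroid (0.48 ± 0.29, adjusted p = 0.206) or retina (0.64 ± 0.22, adjusted p = 0.0554), though in retina the replicate block called it at 0.60 (adjusted p = 0.0388), as did leaving out positive 960 (0.90, adjusted p = 0.000942). Tnfrsf21 (DR6), a neuronal receptor, was near even in choroid (-0.26 ± 0.29, adjusted p = 0.493) and brain (0.21 ± 0.23, adjusted p = 0.494).

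Levels between genes were compared per kilobase (kb) of exon in GENCODE M21. In choroid positives Ccl21a led with 181 ± 205 CPM per kb, followed by Ccl8 (136 ± 87.8), Tnfrsf1a (114 ± 9.26) and Cxcr4 (94.2 ± 14.1). The first place of Ccl21a rests on positive 953, at 418 CPM per kb against 61.3 and 64.3, and its spread overlaps that of all the genes just named. In retina positives Tnfsf12 led with 134 ± 14.2 CPM per kb, above Cxcl14 (45.0 ± 11.3) and Cxcl12 (40.6 ± 22.3), which overlap each other. In brain positives Cxcl12 led with 94.6 ± 16.3 CPM per kb, above Tnfsf12 (59.8 ± 8.05), Cxcl14 (55.9 ± 10.1) and Tnfrsf1a (47.3 ± 4.54), which lie close together. In inputs the leading members were Tnfrsf1a in choroid (43.6 ± 3.05), Tnfsf12 in retina (103 ± 4.38) and Cxcl14 in brain (73.8 ± 6.47 CPM per kb).

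**Figure D3:**
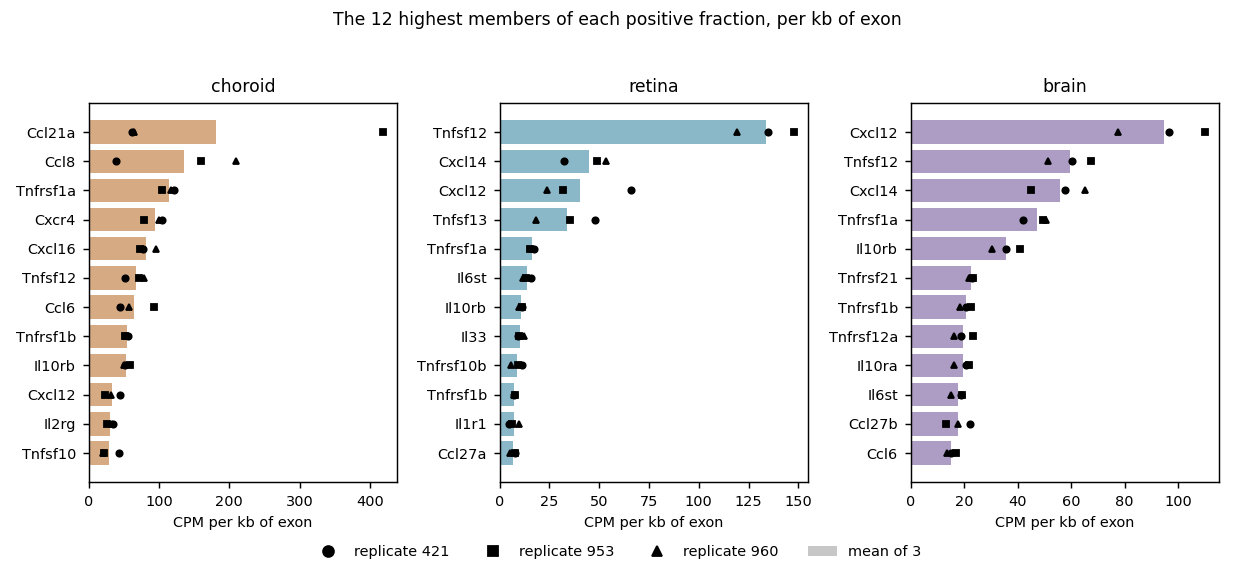
Level in CPM per kb of exon of the 12 highest members of each positive fraction, with bars for the mean of 3 libraries and 1 point for each library. Tnfrsf1a is among the first 5 in all 3 tissues, and the 953 point of Ccl21a lies far from its other points.

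Whether enrichment itself differed between tissues was tested as the difference of the log2 fold changes in 1 fit of all 18 libraries, for the 29 members in all 3 tables. Choroid enrichment was above that of retina for 4 members and below it for 9 (of all genes 10.9% and 18%), and with a replicate block within each tissue the 4 became 2. It was above that of brain for 1 and below it for 10 (12.2% and 12.3%), and a fit of the 12 libraries of these tissues called 7 of the 11 members listed in both but not in retina, 2 above and 5 below (20.6% of genes called in either direction). Retina was above brain for 3 and below for 5 of the 29 (8.33% and 4.97%), and above for 2 of the 5 members of the corresponding 12-library fit (14.7% of genes in either direction). Each tissue's libraries enter 2 of these comparisons, so they are not independent. Listing through a single fraction in either tissue also favours a difference, so these counts are a description of the listed genes. Median differences over the 29 members were -0.37 for choroid minus retina, -0.47 for choroid minus brain and -0.08 for retina minus brain, against -0.07, 0.08 and 0.20 over all genes of the 18-library fit.

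Cxcl12 had the lowest difference in both comparisons of choroid, -4.64 ± 0.45 against retina (adjusted p = 2.79e-06) and -3.99 ± 0.45 against brain (adjusted p = 7.96e-06). Retina and brain did not differ beyond the error for it (0.65 ± 0.44, adjusted p = 0.342). Its receptor Cxcr4 was on the other side, 2.10 ± 0.38 above brain (adjusted p = 0.00264), and Cxcr7 was 2.62 ± 0.67 below retina (adjusted p = 0.00766). Il1r1 was lower in choroid by -2.25 ± 0.45 against retina (adjusted p = 0.00153) and by -3.49 ± 0.46 against brain (adjusted p = 4.07e-05). Il17rd, a member of the IL-17 receptor family, gave -2.90 ± 0.52 and -2.76 ± 0.51 (adjusted p = 0.000686 and 0.000850), and Il10rb -2.59 ± 0.24 against brain (adjusted p = 1.53e-06). Il17rd was listed through input alone in choroid and through the positives alone in retina and brain. Il1r1 was listed through input alone in choroid and through the positives alone in brain. Those listings favour the Il17rd and Il1r1 differences, which carry no more weight than that. Il13ra1 was 3.82 ± 0.40 higher in retina than in choroid (adjusted p = 4.86e-06, given as -3.82 for choroid minus retina) and 2.94 ± 0.40 higher than in brain (adjusted p = 0.000193). It was listed in retina through the positive fraction alone, so both Il13ra1 differences carry no more weight than that listing.

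Cxcl16 and Cxcl14 were more enriched in choroid than in retina, by 2.04 ± 0.41 (adjusted p = 0.00161) and 1.52 ± 0.36 (adjusted p = 0.00453). Against brain Cxcl14 kept a difference of 2.00 ± 0.36 (adjusted p = 0.000675), while Cxcl16 did not pass the test (-0.72 ± 0.42, adjusted p = 0.215) and was less enriched in retina than in brain (-2.77 ± 0.43, adjusted p = 0.000670). Cxcl16 was listed through input alone in retina and through the positives alone in brain, and that listing favours its called differences. Tnfsf12 was less enriched in retina than in brain, by -2.26 ± 0.29 (adjusted p = 9.86e-05). Il33, lower in every positive fraction, was less so in retina than in brain (1.51 ± 0.43, adjusted p = 0.0275), but this call ended without any 1 of 11 of the 18 libraries (highest adjusted p over single libraries = 0.0832). Cxcr2 passed for retina minus brain (2.63 ± 0.79, adjusted p = 0.0364) but without brain input 960 it was at 1.10 (adjusted p = 0.125), and the call also ended without any 1 of 12 other libraries.

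**Figure D4:**
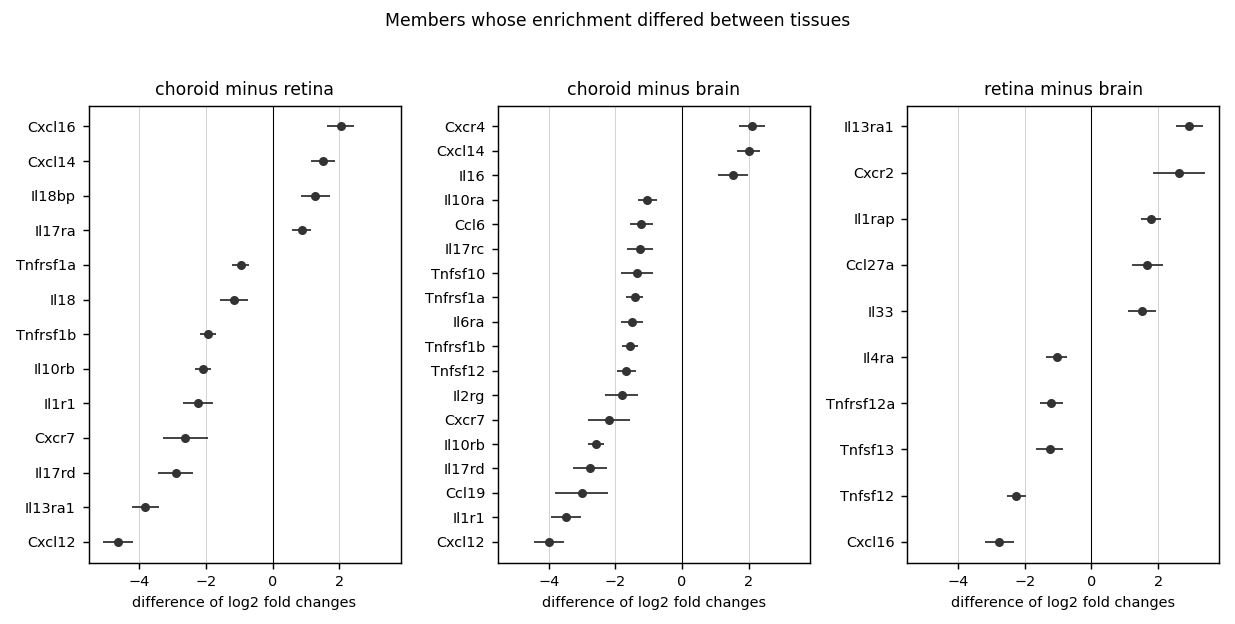
Difference between tissues in the log2 fold change of positive over input, with its SE, for the members called in each comparison. Cxcl12 is the lowest point in both comparisons of choroid, and Il13ra1 is the highest point of retina minus brain. Il13ra1 was listed in retina through the positive fraction alone, which favours that height.

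The positive fractions were also compared with each other, with CPM scaled over the 9 positive libraries, which differs slightly from the scaling within a tissue. Choroid was higher than retina for 16 of the 29 members and lower for 5 (all genes 32.9% and 39.1%). It was higher than brain for 13 and lower for 6 (23.1% and 23.8%), and in the 6-library fit it was higher for 5 and lower for 2 of 11 members (48.1% of genes in either direction). Retina was higher than brain for 5 and lower for 14 of the 29 (32.1% and 31%), and higher for 1 and lower for 1 of 5 members in the 6-library fit (68.4% of genes in either direction). Median log2 differences of the 29 members were 1.29, 0.55 and -0.69 in the order of these comparisons, against -0.11, 0.03 and -0.01 over all genes. These levels hold whatever cells of the blood lineage each tissue has, and the pan-leukocyte markers summed to 862 to 1072 CPM in choroid positives, 42.1 to 129 in retina and 760 to 1049 in brain on the scale within a tissue.

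Cxcr4 differed most between choroid and brain positives, at 188, 141 and 180 CPM against 3.89, 3.59 and 4.61 CPM (log2 difference 5.39 ± 0.20, adjusted p = 4.49e-07). Cxcl16 was at 249, 233 and 307 CPM in choroid, 7.51, 20.5 and 19.1 CPM in retina and 27.1, 24.0 and 23.0 CPM in brain, so that choroid lay above retina by 4.06 ± 0.30 (adjusted p = 1.43e-07) and above brain by 3.41 ± 0.29 (adjusted p = 8.18e-07). Il3ra was at 49.6, 82.2 and 119 CPM in choroid, 12.8, 10.8 and 7.02 CPM in retina and 10.7, 11.4 and 12.5 CPM in brain. It was above retina by 3.04 ± 0.32 (adjusted p = 2.51e-06) and above brain by 2.84 ± 0.30 (adjusted p = 6.51e-06). Choroid positives thus held more of these 3 genes than either other bed where they were listed, without overlap. Tnfrsf1a and Tnfrsf1b, less enriched in choroid, were at a higher level there, 2.81 ± 0.16 and 2.89 ± 0.15 above retina (adjusted p = 2.44e-08 and 1.60e-08).

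Cxcl12 was at 386, 202 and 277 CPM in choroid positives, 569, 280 and 206 CPM in retina and 792, 899 and 640 CPM in brain. Choroid and retina overlapped (-0.29 ± 0.34, adjusted p = 0.460), and brain lay above choroid (-1.43 ± 0.34, adjusted p = 0.00432) and above retina (-1.14 ± 0.34, adjusted p = 0.0105; ended without retina positive 953, adjusted p = 0.0527). Il1r1 was at 22.5, 28.0 and 10.8 CPM in choroid, below 32.2, 44.0 and 66.7 CPM in retina (-1.20 ± 0.34, adjusted p = 0.00672) and 52.2, 67.3 and 92.3 CPM in brain (-1.76 ± 0.34, adjusted p = 0.000972). Il34 was highest in brain positives, at 20.1, 18.7 and 27.9 CPM against 5.33, 7.15 and 2.71 CPM in choroid (-2.09 ± 0.35, adjusted p = 0.000315). Tnfrsf21 was lower in retina positives, at 19.7, 16.6 and 16.6 CPM, than in those of brain, at 94.7, 95.6 and 90.5 CPM (-2.41 ± 0.18, adjusted p = 3.59e-07). Tnfsf13 was at 82.4, 61.7 and 31.3 CPM in retina positives, above 14.9, 15.7 and 10.7 CPM in brain (2.08 ± 0.30, adjusted p = 8.29e-05). Its choroid positives, at 34.4, 42.3 and 50.0 CPM, overlapped those of retina (-0.47 ± 0.31, adjusted p = 0.180).

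Genes of the same pathways under other names were counted from fixed lists. The listing limit applies to these genes too, so their counts and rises are a description of the listed genes. For reference, 21.1% of all genes were called higher and 20.9% lower in choroid, 18% and 13.7% in retina, and 21.2% and 18.3% in brain. Of the chemokine system (18 symbols) 9, 6 and 9 were listed in choroid, retina and brain, with 8 higher and 1 lower in choroid, 4 and 0 in retina and 7 and 0 in brain. The 18 symbols hold older and newer names of the same genes, such as Darc and Ackr1, and Ackr3, the newer name of the member Cxcr7. The number of distinct genes is therefore smaller. In choroid these included Cx3cl1, the membrane ligand of microglial CX3CR1, at 68.2 ± 15.0 and 344 ± 112 CPM (2.33 ± 0.27, adjusted p = 0.000384), which was not called in retina (0.05 ± 0.11, adjusted p = 0.731) or brain (-0.47 ± 0.17, adjusted p = 0.0615). Of 33 other cytokines and receptors 21, 18 and 23 were listed, with 10 higher and 4 lower, 11 and 1, and 15 and 0. Among these Sigirr, an inhibitor of IL-1 family signalling, rose from 3.90 ± 1.21 to 34.9 ± 4.53 CPM in choroid, from 0.186 ± 0.0777 to 13.5 ± 4.79 CPM in retina and from 0.749 ± 0.391 to 34.7 ± 3.84 CPM in brain. Of 15 further TNF family genes 3, 4 and 6 were listed, with 2 higher and 1 lower, 2 and 0, and 4 and 2. Fas, the death receptor, was higher in each, by 2.60 ± 0.30, 5.65 ± 0.27 and 4.62 ± 0.48.

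Genes downstream of the receptors were counted in the same way, under the same listing limit. The shares of all genes called higher and lower were 21.1% and 20.9% in choroid, 18% and 13.7% in retina, and 21.2% and 18.3% in brain. Of 25 JAK-STAT genes 23, 22 and 24 were listed, with 9 higher and 1 lower in choroid, 8 and 5 in retina and 11 and 0 in brain. The median log2 fold changes of that list were 0.19, 0.06 and 0.50. Jak3, the kinase of the common gamma chain, rose in retina (2.4 ± 0.35) and brain (3.09 ± 0.18), while Ptpn11, a phosphatase, was called in none of the 3. Of 39 NF-kappaB genes and adaptors 36, 31 and 38 were listed, with 15 higher and 0 lower, 13 and 2, and 26 and 1, and medians of 0.43, 0.37 and 1.01. Nfkbia, the inhibitor of NF-kappaB that is itself its target, rose in choroid from 113 ± 26.6 to 525 ± 163 CPM (2.22 ± 0.28) and in retina from 31.3 ± 2.61 to 97.4 ± 16.6 CPM (1.64 ± 0.14). Casp8, which acts below the death receptors, rose in brain from 2.70 ± 0.696 to 60.3 ± 9.95 CPM (4.43 ± 0.25).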

How the data were processed

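RNA-seq was analysed from 18 libraries of 3 tissues, 2 fractions and 3 replicates. The raw columns hold expected counts deposited by the authors (72%, 91.5% and 90.2% not whole within 0.001 in choroid, retina and brain), which were rounded. The log2 columns the authors deposited were not used. Per the file headers, listing required a raw value of 50 in all libraries of at least 1 fraction. The submitters' processing notes name DESeq and mm10, and the sources used here do not give the aligner, the counter or the use of strand. Libraries were made with a directional kit, per the labels' protocols.

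Fits used edgeR 4.0.16 in R 4.3.3 (TMM; filterByExpr removed 0 genes; quasi-likelihood F test; Benjamini-Hochberg over all genes; threshold 0.05) with 4 residual degrees of freedom in a tissue, 12 and 8 for the 18-library and 12-library fits and 6 and 4 for the 9 and 6 positive libraries. Code was tested on simulated data. Alternatives were RLE and library-size scaling, DESeq2 1.42.0, other filters, other sets of libraries and a replicate block.

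Within a tissue, same-numbered libraries come from 1 lysate per the labels' protocols. Deviations from the group means correlated between same-numbered fractions at 0.648, 0.278 and 0.554 in choroid, 0.0999, 0.0748 and 0.0104 in retina and 0.18, 0.0191 and 0.0695 in brain. Across tissues nothing shows that the number pairs libraries. P-values measure the spread between 3 libraries.

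All 67 members matched GENCODE M21, 66 by Ensembl ID and 1 by symbol. Named members follow a rule: per tissue and role the 4 called members of smallest adjusted p and at most 2 uncalled ones of highest level, the 6 highest and 6 lowest called changes at a mean of at least 2 CPM, the 5 highest and 5 lowest per comparison of tissues, and a fixed few (Ccl21a, Cxcl12, Cxcr4, Il6st, Il1r1, Il33, Il34, Tnfrsf1a, Tnfsf10). Members called in all tissues, the chromosome 11 ligands, and Cxcl14, Il13ra1, Il4ra and Il3ra outside the comparison that named them were named after their values were seen. Of each other list, 2 called genes and 1 uncalled gene per tissue could be named. The members and lists were chosen with earlier results of these data known. The values of 1 member, which stays in all counts and fits, and 1 coding stretch are not reported here.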

Additional observations from a re-analysis of the deposited data

Results flagged for a closer look

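The differences below stood out because the enrichment of a member was tested between tissues and the test of that difference passed (edgeR, Benjamini-Hochberg adjusted p under 0.05 over all genes of the fit). Every value is a log2 difference of positive over input, and values of members listed in only those 2 tissues (Ccl19, Cxcr4 and Il16 for choroid minus brain, Il1rap and Ccl27a for retina minus brain) come from a 12-library fit, the others from the 18-library fit. Members whose listing through a single fraction favours the difference are named with each comparison, and those values carry no more weight than that listing.

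For choroid minus retina, Cxcl12 was at -4.64, Il13ra1 at -3.82, Il17rd at -2.90, Cxcr7 at -2.62, Il1r1 at -2.25 and Tnfrsf1a at -0.95. On the other side were Cxcl16 at 2.04, Cxcl14 at 1.52, Il18bp at 1.28 and Il17ra, the shared IL-17 receptor chain, at 0.87. Il17rd and Il13ra1 were listed in retina through the positives alone. Through input alone, Il17rd and Il1r1 were listed in choroid and Cxcl16 in retina. The calls of Il18bp and Il17ra ended with a replicate block within tissue (adjusted p = 0.0521 and 0.0628), and leaving out a single library ended them for 6 and 8 libraries (highest adjusted p = 0.0877 and 0.0902).

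For choroid minus brain, Cxcl12 was at -3.99, Il1r1 at -3.49, Ccl19 at -3.01, Il17rd at -2.76, Il10rb at -2.59, Tnfrsf1a at -1.42 and Tnfsf10 at -1.36. Cxcr4 was at 2.10, Cxcl14 at 2.00 and Il16 at 1.53. Ccl19, Il1r1 and Il17rd were listed through input alone in choroid and through the positives alone in brain. Through the positives alone, Tnfsf10 was listed in brain and Il16 in choroid. Leaving out a single library ended the call of Il16 for 9 libraries (highest adjusted p = 0.0798, without choroid input 953) and that of Tnfsf10 for 10 (0.106, without brain positive 421), and ended none of the other 8.

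For retina minus brain, Cxcl16 was at -2.77, Tnfsf12 at -2.26, Tnfsf13 at -1.25, Tnfrsf12a at -1.21 and Il4ra at -1.04, the last lost with the block (adjusted p = 0.0520). Il13ra1 was at 2.94, Cxcr2 at 2.63, Il1rap at 1.79, Ccl27a at 1.68 and Il33 at 1.51. Cxcl16 was listed through input alone in retina and through the positives alone in brain. Tnfrsf12a was listed through input alone in retina, Tnfsf13 through the positives alone in brain, and Il13ra1 through the positives alone in retina. Of these 10 calls 6 ended when a single library was left out. They were Tnfsf13 (10 libraries, highest adjusted p = 0.121, without brain positive 953), Tnfrsf12a (8 libraries, 0.0880, without brain positive 953), Il4ra (8 libraries, 0.111, without retina input 421), Ccl27a (6 libraries, 0.0865, without brain positive 953), Il33 (11 libraries) and Cxcr2 (13 libraries). Without brain input 960 the Cxcr2 difference was 1.10 (adjusted p = 0.125).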

How the results depend on the processing

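Of 189 results for named members 118 kept direction and side of the threshold under every alternative run. The counts of this section pool members of both fits where brain is compared with another tissue. On the full data they were 3 higher and 15 lower of 40 for choroid minus brain and 5 and 5 of 34 for retina minus brain. For positives they were 18 and 8 of 40 for choroid against brain and 6 and 15 of 34 for retina against brain. The counts of called members moved by over 1.5 times as follows. With all 18 libraries in 1 fit, where only the 29 members of all 3 tables are tested, 15 were higher and 1 lower in choroid, 20 higher in brain and 0 lower in retina. With a raw minimum of 100, retina had 1 lower, choroid minus brain 1 higher, retina minus brain 3 higher, choroid positives 10 higher than retina and 4 lower than brain, and retina positives 8 lower than brain. With only the 2 tissues compared in the fit, 3 were higher for retina minus brain and 3 lower for choroid against retina positives. Choroid minus retina had 2 higher under library-size scaling and 2 under the replicate block within tissue. Library-size scaling moved the median of all genes by -0.226 in choroid, where 34.5% of calls were then higher in place of 50.2%, by -0.262 in choroid minus retina (17.8% in place of 37.7%), by -0.334 in choroid minus brain (19.9% in place of 49.8%), and by -0.217 and -0.166 for choroid against retina and brain positives (for brain 35.7% in place of 49.3%); for retina minus brain the share went from 62.6% to 52.4%.

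Leaving out libraries gave 20 to 26 members higher and 4 to 6 lower in choroid. Retina had 10 to 22 higher with 0 to 3 lower, and brain had 26 to 41 higher with 0 to 9 lower. The ranges were 2 to 5 and 8 to 9 for choroid minus retina, 2 to 4 and 10 to 19 for choroid minus brain, and 2 to 5 and 2 to 9 for retina minus brain. For positives they were 15 to 16 and 3 to 7 for choroid against retina, 17 to 20 and 7 to 8 for choroid against brain, and 6 to 8 and 15 to 18 for retina against brain. The lowest retina counts, 10 and 0, and the count of 0 lower in brain came without both fractions of replicate 953, and 9 lower in brain without replicate 960. Where a library is left out, the lone or paired remainder is assumed to vary like the other groups.

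The values that changed sign were all uncalled in the full data. Without single libraries or numbers the log2 value ran from -0.99 to 0.29 for Cxcr7, -0.24 to 0.33 for Il1r1 and -0.48 to 0.0419 for Tnfrsf21 in choroid, from -0.27 to 0.51 for Ccr9, -0.20 to 0.12 for Cxcl14 and -0.14 to 0.50 for Il34 in retina, and from -0.74 to 0.0301 for Ccl25, -0.13 to 0.85 for Il11ra1 and -0.0045 to 0.34 for Tnfrsf21 in brain. Il6st in choroid minus retina ran from -0.22 to 0.32 and Il34 in choroid minus brain from -0.27 to 0.39. Among positives Cxcl12 ran from -0.56 to 0.25 for choroid against retina and Il6st from -0.18 to 0.12 for choroid against brain. Library-size scaling gave -0.0795 for Il11ra1 and -0.18 for Il1r1 in choroid and -0.15 for Il34 in choroid minus brain, and the replicate block gave -0.0138 for Il1r1 in choroid. The block called Il13ra1 and Ccl9 for choroid minus brain (adjusted p = 0.0230 and 0.0487) and Il1r1, Tnfsf10 and Il34 for retina minus brain (adjusted p = 0.0345, 0.0368 and 0.0472). Across tissues, where nothing shows that the number pairs libraries (correlations of 0.176, 0.0243 and 0.0996 for choroid and retina positives), the block gave 16 higher and 5 lower for choroid against retina, 18 and 8 for choroid against brain and 8 and 19 for retina against brain. Without the block these pooled counts were 16 and 5, 18 and 8, and 6 and 15. The cause of these changes was not tested. Depth limits members at a few counts in the inputs, such as Ccl8 in brain and Il13ra1 in retina.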
